A study of Mus musculus with 32 samples.

Results

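Transforming growth factor beta (TGF-beta) genes were followed in whole mouse bladders across age and after treatment with senolytics, drugs meant to remove senescent cells. The 9 genes were taken by symbol from a count table of 32285 genes: the ligands Tgfb1, Tgfb2 and Tgfb3, the receptors Tgfbr1, Tgfbr2 and Tgfbr3, the latency proteins Ltbp1 and Ltbp2, and the inhibitor Smad7. RNA sequencing covered 32 bladders of female C57BL/6 mice. The untreated mice comprised 6 young ones at 2 months of age, 5 middle-aged ones at 10 months and 6 old ones at 26 months. The other old mice were gavaged on 3 consecutive days a month from 21 to 26 months of age with water (n = 5), with the drug vehicle (n = 4), or with 2 senolytics in that vehicle (D + Q, n = 6), daily doses being 5 mg/kg for dasatinib and 50 mg/kg for quercetin. The labels name no engineered allele in any group, and the vehicle mixed Phosal 50 PG, PEG400 and ethanol. The bladder was sequenced whole, so fewer cells of a type and less RNA per cell cannot be told apart in any value given here.

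TGF-beta is secreted as a homodimer held inactive by its own propeptide. Latent TGF-beta binding proteins such as Ltbp1 attach this complex to the extracellular matrix, from which integrins and other factors release the ligand. The free ligand binds Tgfbr2, which phosphorylates Tgfbr1, and Tgfbr1 activates Smad2 and Smad3, which enter the nucleus with Smad4. Tgfbr3 (betaglycan) presents ligand, Tgfb2 in particular, to Tgfbr2. Smad7 is induced by the pathway and shuts off the activated receptor. In hollow organs the pathway is best known for driving collagen production and for restraining epithelial growth.

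Promoter sequence just upstream of the gene start is shown for Tgfb1, Tgfb2 and Ltbp2, 3 genes whose levels rose between middle and old age, as described further on. The sequences come from RefSeq on build GRCm38.p6, run 5′ to 3′ on the strand of the gene and end 1 base before the gene start. Capitals mark the core letters that Smad proteins bind, which read CAGAC on one strand and GTCTG on the other. They also mark the letters TATAAA of the promoter element named after them.
Tgfb1, chr7:25686752-25687001, plus strand: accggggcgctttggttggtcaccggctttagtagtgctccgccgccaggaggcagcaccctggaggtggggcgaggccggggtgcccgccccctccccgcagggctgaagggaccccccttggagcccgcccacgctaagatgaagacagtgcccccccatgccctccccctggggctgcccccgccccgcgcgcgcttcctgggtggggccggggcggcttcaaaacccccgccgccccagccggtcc
Tgfb2, chr1:186705990-186706239, minus strand: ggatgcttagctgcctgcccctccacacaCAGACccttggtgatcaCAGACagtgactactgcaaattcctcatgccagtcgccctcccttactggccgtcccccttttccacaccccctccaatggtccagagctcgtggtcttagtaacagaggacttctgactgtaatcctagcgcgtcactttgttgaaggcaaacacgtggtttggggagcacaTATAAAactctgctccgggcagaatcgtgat
Ltbp2, chr12:84876533-84876741, minus strand: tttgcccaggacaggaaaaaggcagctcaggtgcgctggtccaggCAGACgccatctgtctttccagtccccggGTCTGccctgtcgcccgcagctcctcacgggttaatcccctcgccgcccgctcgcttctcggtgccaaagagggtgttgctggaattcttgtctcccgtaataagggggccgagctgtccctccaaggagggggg
The Tgfb1 stretch was 75.2% G + C and held neither motif. The Tgfb2 stretch was 53.6% G + C, with CAGAC beginning 221 and 204 bases and TATAAA beginning 31 bases upstream of the start. The Ltbp2 stretch was 63.2% G + C and held 2 matches to CAGAC or GTCTG. These letters are common: CAGAC or GTCTG was in 49.6% of 32851 mouse promoter windows of 300 bases, TATAAA on either strand in 13.6%, and the longer Smad motif GTCTAGA, on either strand, in 2.19% of them and in none of the windows of Tgfb1, Tgfb2, Tgfbr1, Tgfbr2, Ltbp1 and Ltbp2. TATAAA was searched for after the sequences had been seen. A match describes letters in a window and shows no binding.

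Counts summed over genes were 15088372 to 52650259 per bladder (median 34074787), and the lowest count of any of the 9 genes was 53, for Ltbp2 in young bladder 3. No 2 libraries had identical counts. All 6 urothelial and all 5 smooth muscle markers listed (among them Upk1a and Upk2, and Myh11 and Des) were detected in each group, with summed levels of 3513 to 4714 and 18631 to 30611 CPM. CPM is the count of a gene relative to the library's total, here scaled by trimmed mean of M values (TMM) over all 6 groups. Groups were compared with the quasi-likelihood test of edgeR, each fit holding only the groups compared, and p-values were adjusted over all genes tested by the Benjamini-Hochberg method. A gene was called at an adjusted p under 0.05, and all 9 genes had enough counts to be tested in each comparison. On mm10 the ligands lie at chr7:25687002-25705077 (Tgfb1, plus strand), chr1:186622792-186705989 (Tgfb2, minus strand) and chr12:86056745-86079041 (Tgfb3, minus strand). The receptors lie at chr4:47353222-47414931 (Tgfbr1, plus strand), chr9:116084293-116175360 (Tgfbr2, minus strand) and chr5:107106570-107289629 (Tgfbr3, minus strand), and the latency proteins at chr17:75005568-75392512 (Ltbp1, plus strand) and chr12:84783212-84876532 (Ltbp2, minus strand). No label gave a sequencing batch, so no value within batches could be computed.

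On the TPM scale, which also divides by exon length and so allows genes to be compared, Tgfbr2 was the most abundant of the 9 genes, with a median of 119 TPM over the 32 bladders. Tgfbr3 followed at 76.4 TPM, Tgfb3 at 57.2 TPM, Tgfbr1 at 39.1 TPM, Ltbp1 at 38.2 TPM, Tgfb1 at 32.7 TPM, Tgfb2 at 29.3 TPM and Smad7 at 25.4 TPM. Ltbp2 came last at 2.67 TPM, lower than Smad7 in 32 of 32 bladders and with no overlap of their ranges. The ranges of all other neighbours in this order overlapped over the 32 bladders. Within a bladder, Tgfbr2 exceeded Tgfbr3 in 32 of 32 and Tgfb3 exceeded Tgfbr1 in 31 of 32, while Tgfbr1 exceeded Ltbp1 in only 20 of 32. Tgfb3 was the main ligand message, at 48.6% ± 4.53 (SD, n = 32) of the summed TPM of the 3 ligands, against means of 26.6% for Tgfb1 and 24.7% for Tgfb2.

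**Figure D1:**
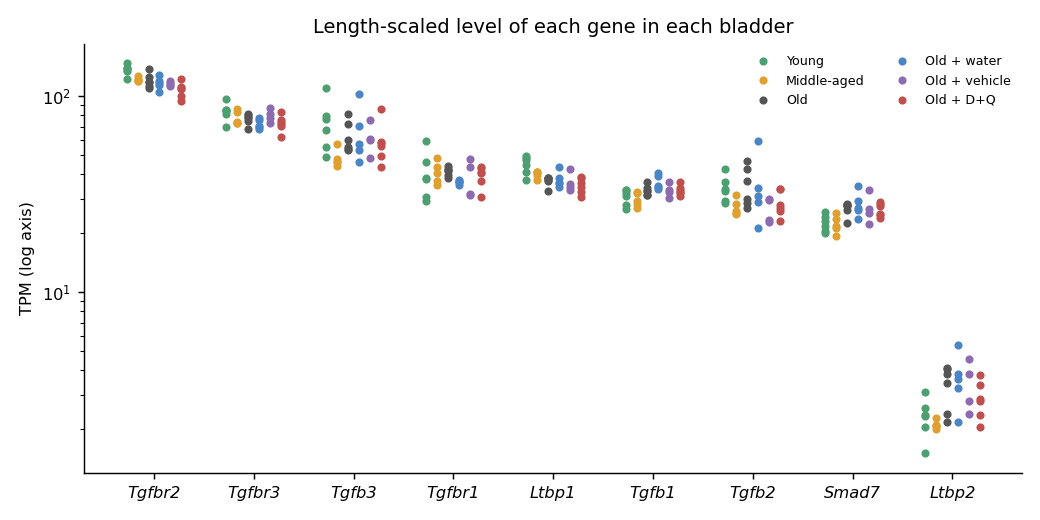
TPM of the 9 genes (log axis) in each bladder, a point per bladder, colored by group and ordered by the median over all 32. Tgfbr2 was highest at a median of 119 TPM, Ltbp2 was lowest at 2.67 TPM, and the groups overlapped for most genes.

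In middle-aged against young bladders, 2 of the 9 genes fell and none rose, beside 10.8% of all genes called in either direction, 5.85% lower and 4.96% higher. The ligand Tgfb3 and the receptor Tgfbr2 were the called genes. Over the 9 genes the median was -0.15 on the log2 scale, against 0.0028 over all 16754 genes tested. In untreated old against middle-aged bladders, 5 of the 9 rose and none fell, beside 24.0% of all genes called in either direction and 13.0% called higher. In neither step did any of the 9 separate the groups without overlap, as 6.97% and 14.6% of all genes did. The 5 genes called in the later step were the 3 ligands, Ltbp2 and Smad7, and no receptor was called. Over the 9 genes the median was 0.20 on the log2 scale, against -0.0047 over all 17156 genes tested. The middle-aged bladders enter both comparisons, so the changes of these genes in the 2 steps are not independent of each other.

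**Figure D2:**
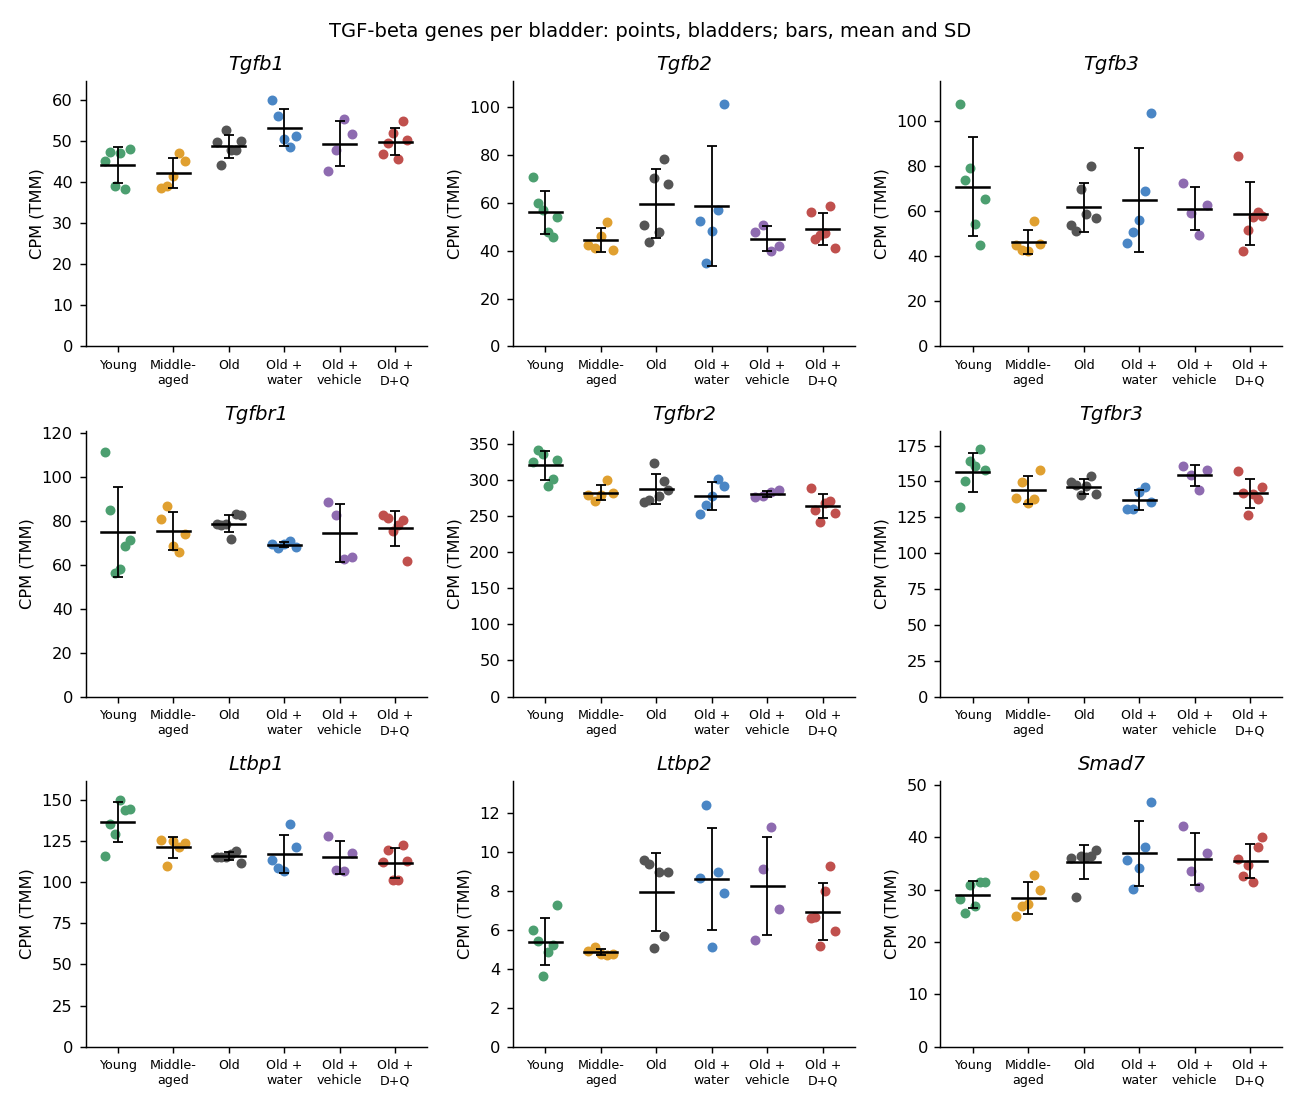
TMM CPM of each gene in the 6 groups, with a point per bladder and bars for the group mean and SD. Tgfb3 was lowest in middle-aged bladders, Ltbp2 and Smad7 were higher in most untreated old than in all middle-aged bladders, and the groups overlapped in both age steps for each gene.

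Tgfb1, the ligand best known from immune and stromal cells, had a lowest, median and highest level of 38.5, 46.2 and 48.0 CPM in young bladders. The middle-aged bladders were at 38.6, 39.0, 41.6, 47.1 and 45.2 CPM. Untreated old bladders ranged from 44.1 to 52.7 CPM with a median of 48.9 CPM. Middle-aged replicates 1, 2 and 3 lay below all untreated old ones, and the other 2 within their range. Tgfb1 rose from middle-aged to untreated old bladders by 0.20 on the log2 scale (SE 0.060, edgeR adjusted p = 0.0260), and from young to middle-aged its log2 fold change was -0.053 (SE 0.0745, edgeR adjusted p = 0.694). The later call was lost when any of middle-aged replicates 1, 2 and 3 or untreated old replicate 6 was left out, with adjusted p up to 0.0717 and log2 fold changes of 0.17 to 0.24 over all 11 omissions.

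Tgfb2, a ligand of mesenchyme and epithelium that depends on Tgfbr3, had a lowest, median and highest level of 45.9, 55.7 and 70.9 CPM in young bladders. The middle-aged bladders were at 42.2, 41.1, 46.3, 52.2 and 40.5 CPM. Untreated old bladders ranged from 43.5 to 78.2 CPM with a median of 59.2 CPM. Untreated old replicates 3, 5 and 6 lay above all middle-aged bladders, and the other 3 overlapped with them. Tgfb2 rose from middle-aged to untreated old by 0.43 on the log2 scale (SE 0.15, edgeR adjusted p = 0.0492). Its log2 fold change from young to middle-aged was -0.32 (SE 0.10) and was not called (edgeR adjusted p = 0.0620). The later call was lost without any 1 of middle-aged replicates 1, 2, 3 and 5 or untreated old replicates 3, 5 and 6, with adjusted p up to 0.115. Leaving out untreated old replicate 5 gave the smallest log2 fold change, 0.34. Tgfb2 shares 124 exon bases with the antisense gene Gm29491, and the strand setting of the counting was not given in the sources used here, so reads of these bases cannot be told apart.

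Tgfb3, known from muscle, palate and wound repair, had a lowest, median and highest level of 45.1, 69.5 and 107.7 CPM in young bladders. The middle-aged values were 44.8, 43.0, 42.4, 55.5 and 45.3 CPM. Untreated old bladders ranged from 51.3 to 79.9 CPM with a median of 57.7 CPM. All middle-aged bladders but replicate 4 lay below all untreated old ones, and young replicate 1 was the highest of all 32 bladders. Tgfb3 fell by 0.60 on the log2 scale from young to middle-aged (SE 0.17, edgeR adjusted p = 0.0426) and rose by 0.42 from middle-aged to untreated old (SE 0.11, edgeR adjusted p = 0.0164). The later call was kept in 11 of 11 omissions of a bladder, whereas the earlier one was lost in 8 of 11. Those 8 left out young replicates 1, 2, 3 and 6 and middle-aged replicates 1, 2, 3 and 5, and the log2 fold change over the 11 was -0.71 to -0.45 with adjusted p up to 0.101. Without young replicate 1 the fall was the smallest of these. The fall was also not called by limma on the deposited log2 table (adjusted p = 0.0604). A joint fit of all 6 groups ended the later calls of all 3 ligands, with edgeR adjusted p of 0.0542 for Tgfb1, 0.118 for Tgfb2 and 0.166 for Tgfb3, and limma ended those of Tgfb1 (0.0682) and Tgfb2 (0.0768). Tgfb3 shares 257 exon bases with Gm48008 on the other strand, whose reads likewise cannot be told apart.

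Among the receptors, Tgfbr1, the kinase that phosphorylates Smad2 and Smad3, was called in neither age step. It had a lowest, median and highest level of 56.2, 69.8 and 111 CPM in young and of 71.9, 78.5 and 83.2 CPM in untreated old bladders, and the middle-aged bladders were at 81.1, 86.7, 68.7, 66.0 and 74.0 CPM. The young bladders thus spanned the range of both other groups. The log2 fold changes were 0.014 (SE 0.15) and 0.066 (SE 0.065) in the earlier and later step.

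Tgfbr2, the receptor that binds ligand first, had a lowest, median and highest level of 291, 326 and 341 CPM in young bladders. The middle-aged values were 279, 271, 278, 300.02 and 282 CPM. All young bladders but replicate 4 exceeded all middle-aged ones, and replicate 4 lay within their range. Tgfbr2 fell by 0.17 on the log2 scale (SE 0.050, edgeR adjusted p = 0.0481). Untreated old bladders ranged from 269 to 323 CPM with a median of 282 CPM, and their log2 fold change against middle-aged ones was 0.026 (SE 0.048). The call was lost without any 1 of young replicates 1, 2, 3 and 6 or middle-aged replicates 1, 2, 3 and 5, with adjusted p up to 0.116 and log2 fold changes of -0.20 to -0.15 over the 11 omissions. It was also lost without a filter on low counts (edgeR adjusted p = 0.0815) and by limma (adjusted p = 0.0508).

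Tgfbr3, the coreceptor, was called in no comparison of ages. It averaged 156 ± 13.8 CPM (SD) over the 6 young, 144 ± 9.72 CPM over the 5 middle-aged and 146 ± 4.94 CPM over the 6 untreated old bladders. The young bladders ranged from 132 to 172 CPM and took in all bladders of the other 2 groups.

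Ltbp1 and Ltbp2, named alike, moved in opposite directions over the whole span of age. Ltbp1, which binds latent TGF-beta, had a lowest, median and highest level of 116, 139.7 and 149.7 CPM in young bladders. The middle-aged bladders were at 125.5, 110.1, 125.2, 121.5 and 123.5 CPM, and the untreated old ones ranged from 112 to 119 CPM with a median of 115 CPM. All young bladders but replicate 1 exceeded all untreated old ones, and replicate 1 lay within their range. From young to untreated old Ltbp1 fell by 0.24 on the log2 scale (SE 0.054, edgeR adjusted p = 0.00569), a call kept in 12 of 12 omissions of a bladder. Neither age step alone was called, at log2 fold changes of -0.16 (SE 0.066) and -0.068 (SE 0.034).

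Ltbp2, a microfibril protein that unlike Ltbp1 does not bind latent TGF-beta, had a lowest, median and highest level of 3.61, 5.33 and 7.27 CPM in young bladders. Middle age gave close values of 4.93, 5.13, 4.79, 4.71 and 4.75 CPM. Untreated old bladders ranged from 5.09 to 9.58 CPM with a median of 8.97 CPM. Untreated old replicate 3 lay within the middle-aged range, and the other 5 were above all middle-aged bladders. Ltbp2 rose from middle-aged to untreated old by 0.71 on the log2 scale (SE 0.16, edgeR adjusted p = 0.00713), kept in 11 of 11 omissions of a bladder at 0.65 to 0.81. Against young bladders the rise was 0.55 (SE 0.19, edgeR adjusted p = 0.0483). That call was lost in 9 of 12 omissions, of young replicates 1 to 5 and untreated old replicates 1, 2, 4 and 6, with adjusted p up to 0.103, and also without a filter on low counts (0.0598) and by limma (0.0912). Ltbp2 shares 764 exon bases with the antisense gene D030025P21Rik, which cannot be told apart here.

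Smad7, the inhibitor, had a lowest, median and highest level of 25.6, 29.6 and 31.5 CPM in young bladders. Those at middle age had 25.0, 26.9, 27.3, 32.9 and 29.9 CPM. Untreated old bladders ranged from 28.6 to 37.6 CPM with a median of 36.4 CPM. All but replicate 2 exceeded all middle-aged and all young bladders. Smad7 rose by 0.31 on the log2 scale from middle-aged (SE 0.081, edgeR adjusted p = 0.0139) and by 0.28 from young bladders (SE 0.074, edgeR adjusted p = 0.0135). Both calls were kept in each omission of a bladder. Over the whole span, 3 of the 9 genes were thus called, beside 25.1% of all genes in either direction, 12.6% higher and 12.4% lower. No ligand was called over this span. The ligand log2 fold changes were 0.14 (SE 0.065) for Tgfb1, 0.093 (SE 0.15) for Tgfb2 and -0.20 (SE 0.18) for Tgfb3. Those of Tgfbr1 and Tgfbr3, also not called, were 0.069 (SE 0.14) and -0.092 (SE 0.055). Tgfbr2 had a log2 fold change of -0.15 (SE 0.056, edgeR adjusted p = 0.0602) and was not called, but it was called by DESeq2 (adjusted p = 0.0318), in a joint fit of all 6 groups (0.0196) and by limma (0.0381).

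**Figure D3:**
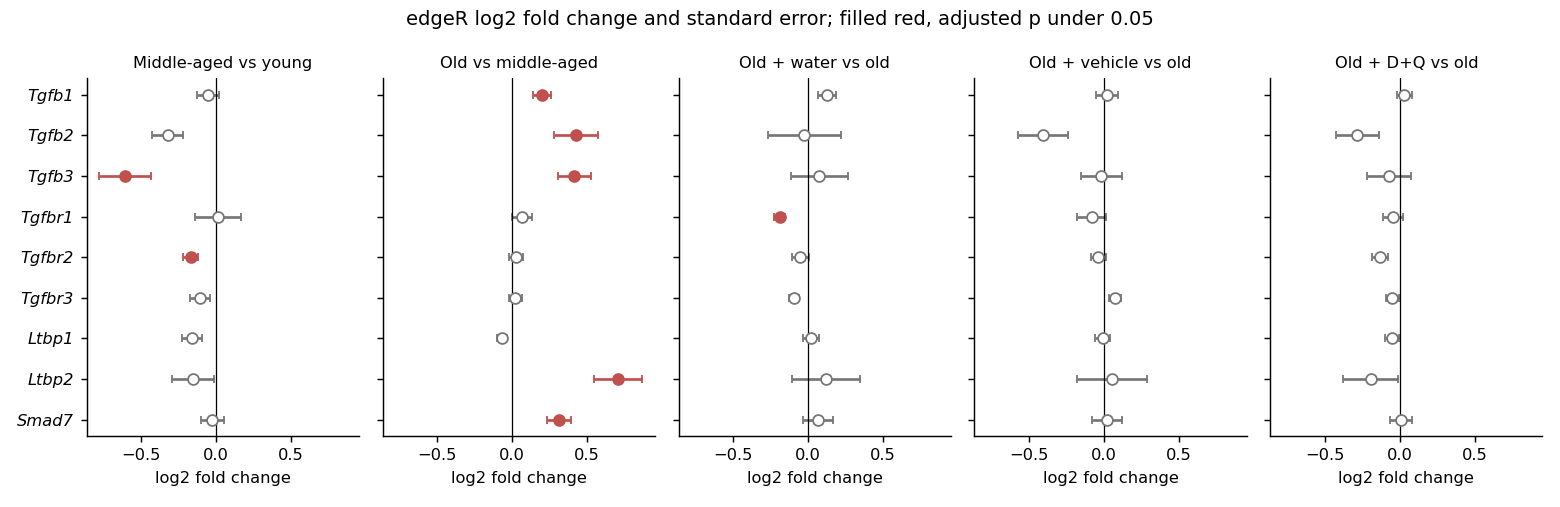
Log2 fold change (points) and standard error (bars) of the 9 genes in 5 comparisons, filled red at an edgeR adjusted p under 0.05. In the comparison of untreated old with middle-aged bladders, 5 genes were called at log2 fold changes of 0.20 to 0.71, and no gene was called after vehicle or D + Q.

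Whether the later step differed from the earlier was tested as a contrast in 1 fit of the 3 untreated groups, in which 10.8% of 17376 genes were called and 7.17% had a positive difference. Only Tgfb3 of the 9 genes was called, with a difference of 1.04 on the log2 scale between the steps (SE 0.31, edgeR adjusted p = 0.0380). Tgfb2 had a difference of 0.77 (SE 0.26, edgeR adjusted p = 0.0631) and Ltbp2 of 0.88 (SE 0.31, edgeR adjusted p = 0.0772), neither called. The Tgfb3 call was kept in 10 of 17 omissions and lost without young replicate 2, middle-aged replicates 1, 2, 3 and 5, or untreated old replicates 3 and 5. The difference was 0.87 to 1.19 over the 17 omissions, with adjusted p up to 0.0976. A joint fit of all 6 groups and limma also ended it, at adjusted p of 0.0556 and 0.0549.

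Tgfb2 and Tgfb3 varied together from bladder to bladder. Over the 32 bladders their log2 CPM had a Pearson r of 0.76, and 0.77 after the group means were removed. Water-treated replicate 5 was high in both (101 and 103 CPM), as were untreated old replicate 5 (78.2 and 79.9 CPM) and young replicate 1 (70.9 and 107.7 CPM). Tgfb1 did not share this pattern, with an r of 0.13 to Tgfb2 and 0.070 to Tgfb3. These bladders share library preparation and scaling, and the values are a description.

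**Figure D4:**
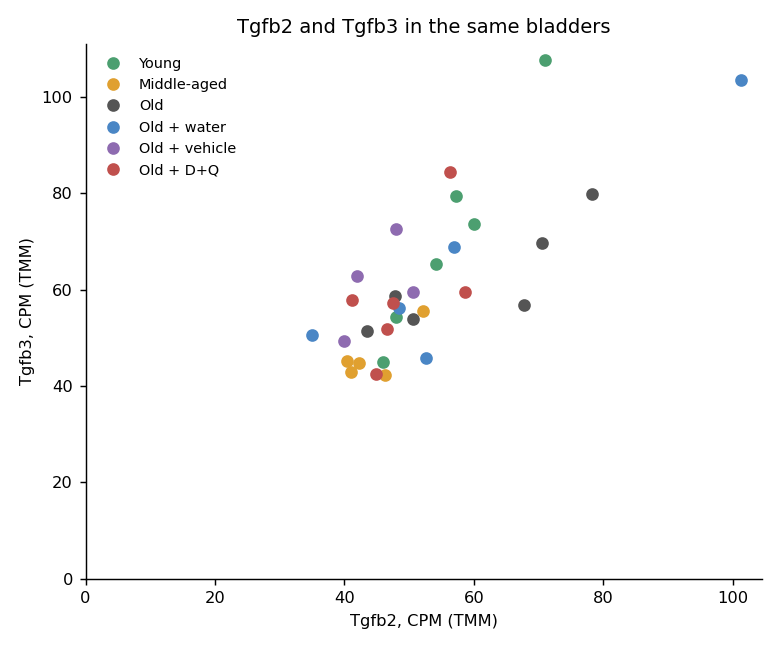
TMM CPM of Tgfb2 (horizontal) and Tgfb3 (vertical), a point per bladder, colored by group. The points spread along a common diagonal (Pearson r of log2 values 0.76, n = 32), with 1 water-treated bladder at 101 and 103 CPM.

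Markers of other cell types moved in the same age step as the ligands, Ltbp2 and Smad7. From middle-aged to untreated old bladders all 4 B and plasma cell markers listed were called higher, and their summed level went from 4.25 to 31.9 CPM to 159 to 815 CPM. All 4 T cell markers were called higher, with sums of 6.52 to 9.002 and 22.4 to 50.4 CPM, and 4 of 5 macrophage markers, with sums of 314 to 366 and 410 to 640 CPM. Of the fibroblast, endothelial and smooth muscle markers, 1 of 5, 2 of 5 and 2 of 5 were called lower. Of the urothelial markers 3 of 6 were called lower, with sums of 3923 to 4540 CPM in middle-aged and 3705 to 3986 CPM in untreated old bladders, as were 1 of 2 skeletal muscle and 1 of 3 Schwann cell markers tested. No marker of these lists was at 0 in all bladders of a group. Over the 32 bladders, log2 Tgfb1 had a Pearson r of 0.70 with the summed T cell and 0.66 with the macrophage markers, and 0.54 and 0.60 after group means were removed. Ltbp2 had an r of 0.68 with the B and plasma cell sum (0.52 without group means), and Tgfb3 of 0.57 with the smooth muscle sum (0.68). Smad7 had an r of 0.39 with the T cell and 0.54 with the B and plasma cell sum. After group means were removed these 2 values of Smad7 were negative, at -0.54 and -0.38. The part of these cells in the changes of the TGF-beta genes was not tested.

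In the earlier step, 3 of 5 fibroblast markers were called lower, and their sum was 3338 to 4100 CPM in young and 3100 to 3485 CPM in middle-aged bladders. Skeletal muscle markers were at 494 to 1115 CPM in young and 453 to 756 CPM in middle-aged bladders, with none of the 2 tested called. Endothelial markers were called lower for 2 of 5, with sums of 263 to 286 CPM in young and 226 to 248 CPM in middle-aged bladders, which did not overlap. Schwann cell and mast cell markers were each called lower for 2 of 3, and B and plasma cell markers called higher for 3 of 4. Log2 Tgfbr2 had a Pearson r of 0.61 with the skeletal muscle sum (0.27 without group means), 0.64 with the endothelial sum (0.20) and 0.55 with the fibroblast sum (0.16). Its r was of like size with the Schwann cell (0.55, and 0.14), mast cell (0.58, and 0.22) and B and plasma cell sums (-0.57, and 0.019). With the macrophage sum it was 0.17, and 0.51 without group means. The part of these markers in the fall of Tgfbr2 was not tested.

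The remaining pathway was described with 37 listed genes, all of which were tested. In middle-aged against young bladders 10 of the 37 fell and none rose, beside 5.85% of all genes called lower, and their median log2 fold change was -0.18 against 0.0028 over all genes. Of 12 target genes 7 fell, among them Lox, which crosslinks collagen and elastin, by 1.51 on the log2 scale (SE 0.32, edgeR adjusted p = 0.0120). The fibrillar collagens Col3a1 and Col1a1 fell by 1.33 (SE 0.22) and 1.07 (SE 0.19). Col3a1 had a lowest, median and highest level of 3794, 5519 and 8674 CPM in young bladders and of 2133, 2321 and 2763 CPM in middle-aged ones, without overlap, as did 3.59% of all genes in this direction. Fbn1, the fibrillin that anchors latent complexes, fell by 1.36 (SE 0.25, edgeR adjusted p = 0.00661). Of 4 coreceptors and other receptors 2 fell, and of 10 Smads and their regulators none was called.

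In untreated old against middle-aged bladders 3 of the 37 rose and 7 fell, beside 13.0% of all genes called higher and 11% lower, with a median of -0.045 against -0.0047 over all genes. Ccn2, a matricellular target gene, rose by 1.88 on the log2 scale (SE 0.33, edgeR adjusted p = 0.00129), from a range of 8.79 to 31.3 CPM to one of 48.4 to 129.9 CPM. These ranges did not overlap, as for 8.49% of all genes in this direction. In the contrast of the steps, the later minus the earlier change of Ccn2 was 3.48 (edgeR adjusted p = 0.0488). That is more than the later rise, so the earlier change of Ccn2 was estimated as a fall. Whether that fall was called by itself is not given here. Nrros, which holds latent TGF-beta on macrophages and microglia, rose by 0.44 (SE 0.076, edgeR adjusted p = 0.00121). Of the 10 Smads and regulators 4 fell. The largest falls among the 37 were of the pseudoreceptor Bambi by 0.31 (SE 0.077), of Smad4 by 0.28 (SE 0.059), of the matrix gene Postn by 0.21 (SE 0.058) and of the latency protein Ltbp3 by 0.19 (SE 0.033). Of the 12 target genes 2 rose, 1 fell and 9 were not called.

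Against young bladders, 2 of the 37 genes were higher in untreated old ones, among them the Smad repressor Skil by 0.38 (SE 0.13, edgeR adjusted p = 0.0420). Another 19 were lower, beside 12.4% of all genes, with a median over the 37 of -0.22 against -0.0021 over all genes. The largest falls were of Col3a1 (1.51), Fbn1 (1.46), Lox (1.43) and Col1a1 (1.27 on the log2 scale). Over the same span 4 of 5 fibroblast markers were called lower (sums of 3338 to 4100 CPM in young and 2858 to 3201 CPM in untreated old bladders), as were 4 of 5 endothelial, 2 of 5 smooth muscle, 2 of 2 skeletal muscle, 3 of 3 Schwann cell and 3 of 3 mast cell markers tested. All 4 B and plasma cell, all 4 T cell and 2 of 5 macrophage markers were called higher, and the part of these cells in the changes was not tested.

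**Figure D5:**
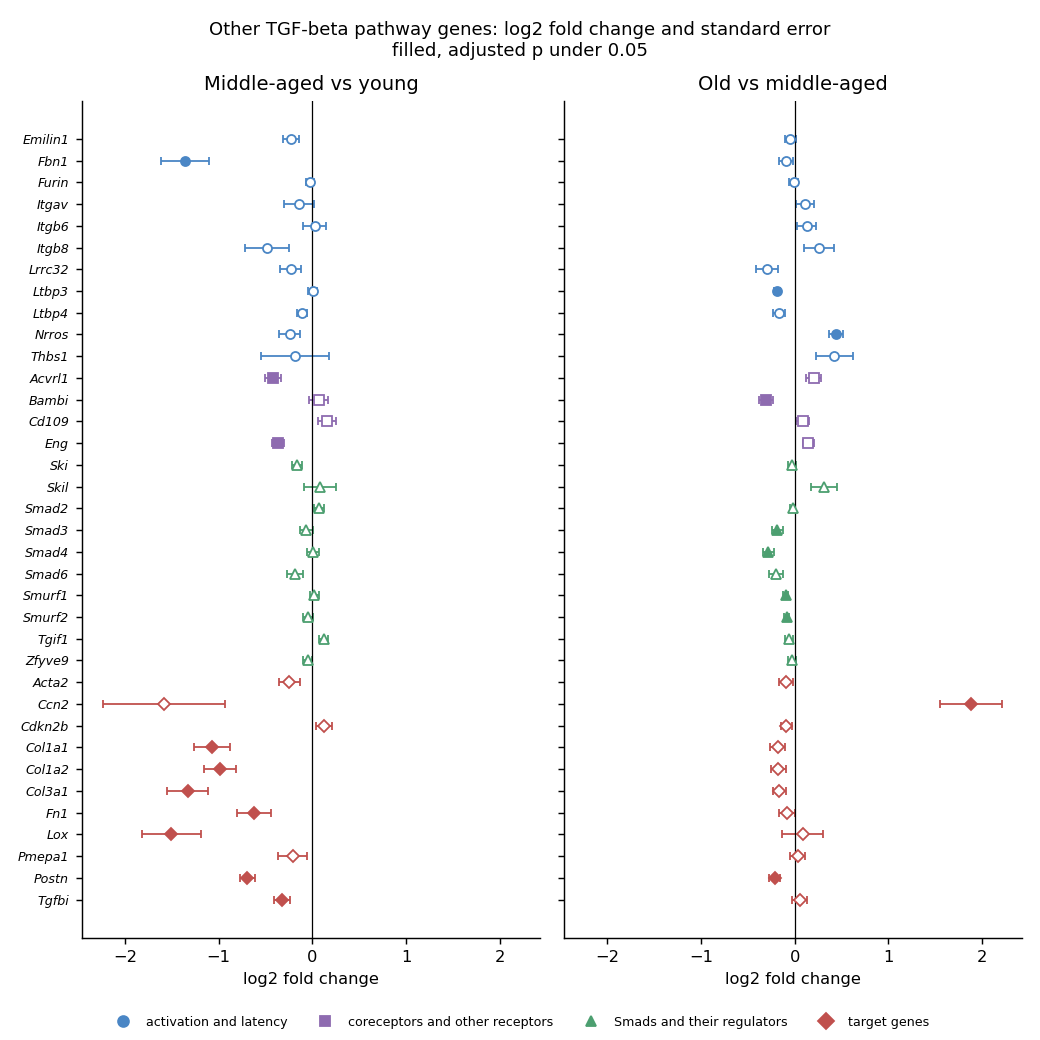
Log2 fold change (points) and standard error (bars) of other pathway genes in the 2 age steps, filled at an edgeR adjusted p under 0.05, with symbols for the 4 lists. Lox (-1.51) and Col3a1 (-1.33) were among the genes called lower in the earlier step, and Ccn2 was called higher in the later step at 1.88.

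Water gavage left 8 of the 9 genes without a call against untreated old bladders, where 1% of all genes were called and 0.516% were called lower. The exception was Tgfbr1. It ranged from 71.9 to 83.2 CPM with a median of 78.5 CPM in untreated old bladders and was at 69.7, 67.9, 69.4, 70.7 and 68.3 CPM after water. All water-treated bladders lay below all untreated old ones, as for 1.48% of all genes. Tgfbr1 fell by 0.19 on the log2 scale (SE 0.037, edgeR adjusted p = 0.0372). The call was lost in 10 of 11 omissions of a bladder, all but that of untreated old replicate 4, with log2 fold changes of -0.21 to -0.17 and adjusted p up to 0.106. It was also lost without a filter on low counts (edgeR adjusted p = 0.0574), in a joint fit of all 6 groups (0.629) and by limma (0.142). Log2 Tgfbr1 had a Pearson r of -0.55 with the urothelial sum over the 32 bladders (-0.58 without group means). That sum was 3705 to 3986 CPM in untreated old and 3762 to 4282 CPM in water-treated bladders, with 0 of 6 markers called. With the fibroblast sum the r of Tgfbr1 was 0.25 (0.45 without group means). The fibroblast sum was 2858 to 3201 CPM in untreated old and 2604 to 2944 CPM in water-treated bladders, with 0 of 5 markers called. The part of these markers in the result was not tested.

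Of the 37 pathway genes only Itgb8, the integrin subunit that with Itgav releases TGF-beta from its latent complex, was called after water. It fell by 0.72 on the log2 scale (SE 0.13, edgeR adjusted p = 0.0280), from 3.93 to 6.01 CPM in untreated old to 2.33 to 3.52 CPM in water-treated bladders. These ranges did not overlap, as for 1.48% of all genes in this direction. The joint fit of all 6 groups, limma and a block for the replicate number called no gene here, so this call was lost in each. Tgfb1 was at 60.0, 56.1, 50.7, 48.7 and 51.4 CPM after water, with a log2 fold change of 0.13 (SE 0.060, edgeR adjusted p = 0.309). For Tgfb2 and Tgfb3 the water group rested on replicate 5. Their log2 fold changes were -0.022 (SE 0.24) and 0.078 (SE 0.19) with it, and -0.31 and -0.15 without it.

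Vehicle gavage gave no call among the 9 genes or among all 17440 genes tested by edgeR, of which 8.39% had an unadjusted p under 0.05, while DESeq2 called 132 genes and none of the 9. Tgfb2 was the 1 gene of the 9 with an unadjusted p under 0.05. The vehicle-treated bladders were at 48.0, 50.6, 39.9 and 41.9 CPM of Tgfb2, all within or below the untreated old range of 43.5 to 78.2 CPM. Its log2 fold change was -0.40 (SE 0.17, edgeR adjusted p = 0.555). None of the 37 pathway genes was called.

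D + Q was set against 3 groups of old bladders, and none of the 9 genes or of the 37 pathway genes was called in any. Against untreated old bladders edgeR called 0 of 17037 genes (0% of all), with 12.9% at an unadjusted p under 0.05, and DESeq2 called 185 genes, none of the 9. Against vehicle-treated bladders edgeR called 0 of 17267, with 4.18% at an unadjusted p under 0.05, and DESeq2 called 11. Against water-treated bladders edgeR called 0 of 17161, with 7.82% at an unadjusted p under 0.05, and DESeq2 called 69. The D + Q bladders enter all 3 comparisons, and the untreated old bladders are also the controls of both gavage comparisons.

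Ligand levels in D + Q bladders overlapped with those of each old control group, and Tgfb3 in D + Q replicate 2 (42.4 CPM) was below all old control bladders. Tgfb1 had a lowest, median and highest level of 45.7, 50.0 and 54.9 CPM after D + Q, against 44.1, 48.9 and 52.7 CPM in untreated old bladders, and the vehicle-treated bladders were at 42.7, 47.9, 55.3 and 51.9 CPM. Its log2 fold change was 0.033 (SE 0.051) against untreated old, 0.0091 (SE 0.074) against vehicle and -0.10 (SE 0.062) against water. Tgfb2 was at 41.2, 47.0 and 58.6 CPM after D + Q, with log2 fold changes of -0.28 (SE 0.14) against untreated old, 0.12 (SE 0.11) against vehicle and -0.26 (SE 0.21) against water. The sign of Tgfb2 thus depended on the control group. Tgfb3 was at 42.4, 57.6 and 84.5 CPM after D + Q, with 72.5, 59.4, 49.4 and 62.8 CPM after vehicle and log2 fold changes between -0.15 and -0.053 in the 3 comparisons.

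Tgfbr2 was the 1 gene of the 9 with an unadjusted p under 0.05 after D + Q against untreated old bladders, beside 12.9% of all genes. It had a lowest, median and highest level of 241, 263 and 289 CPM after D + Q and of 269, 282 and 323 CPM in untreated old bladders, and the vehicle-treated bladders were at 275.5, 277, 283 and 285 CPM. D + Q replicates 2, 3, 4 and 6 lay below all untreated old and all vehicle-treated ones, and the other 2 within the untreated range. The water-treated bladders ranged from 253 to 302 CPM, and only D + Q replicate 3 lay below all of them. The log2 fold change was -0.13 (SE 0.053, edgeR adjusted p = 0.356) against untreated old, -0.094 (SE 0.055) against vehicle and -0.081 (SE 0.057) against water. Tgfbr1 ranged from 61.6 to 82.5 CPM and Tgfbr3 from 126 to 157 CPM after D + Q, both overlapping with all 3 control groups.

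Ltbp2, the gene of the 9 with the largest called rise with age, had a lowest, median and highest level of 5.19, 6.65 and 9.26 CPM after D + Q. The vehicle-treated bladders were at 5.47, 9.12, 11.3 and 7.09 CPM and the water-treated ones at 8.67, 12.4, 5.15, 8.97 and 7.89 CPM. Its log2 fold change was -0.19 (SE 0.18) against untreated old, -0.25 (SE 0.21) against vehicle and -0.32 (SE 0.20) against water, and none was called. Ltbp1 ranged from 101 to 123 CPM after D + Q, with log2 fold changes of -0.074 to -0.046. Smad7 ranged from 31.6 to 40.2 CPM after D + Q, with log2 fold changes of -0.061 to 0.010 and standard errors of 0.073 to 0.099. These standard errors set the size of change that could be seen.

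The genes most like each of the 9 over the 32 bladders were found by Pearson r of log2 CPM. Tgfb3 was most like Myh2, a myosin heavy chain of skeletal muscle (r 0.91, and 0.88 without group means), and Ankrd1, a stretch-responsive muscle gene (0.87 and 0.86). With the summed skeletal muscle markers its r was only 0.33 (0.43 without group means), below that with the smooth muscle sum. Tgfbr1 was most like Hook3 (0.89) and Itgav, the integrin subunit named above (0.89). Ltbp2 was most like Chst3, a sulfotransferase of chondroitin chains (0.89), and the class II presentation gene H2-DMb2 (0.87). Tgfbr2 was most like B4galt1 (0.87) and Akap2 (0.86), and Smad7 most like Ntn4, a basement membrane netrin (0.83), and the urea transporter Slc14a1 (0.80). Tgfb1 was most like Rad9a (0.83) and Pitpnm1 (0.81), and Tgfb2 most like Cttnbp2nl (0.82) and Tsc22d2 (0.81). Ltbp1 was most like Fbxl7 (0.79) and Dvl3 (0.78), and Tgfbr3, with the weakest match, like Scmh1 (0.70) and Peli2 (0.64).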

How the data were processed

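Total RNA of 32 mouse bladders was sequenced. The authors aligned reads to mm10 with STAR 2.7.3, counted them per gene with Subread featureCounts and deposited the raw counts without normalization, beside the summed exon length in bases (the other unit deposited). The authors also deposited a table of log2 values. Its values match counts with 1 added, divided by length, scaled to a sum of 100000 per library and then logged. The strand setting of counting, the edgeR test and any filter on low counts were not given in the sources used here.

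Counts were fitted with edgeR 4.0.16 in R 4.3.3: after filterByExpr and TMM scaling the quasi-likelihood test was run, with Benjamini-Hochberg adjustment over all genes tested and an adjusted p under 0.05 as the call. There were 8 comparisons of 2 groups and 1 contrast of the age steps. TPM was computed from counts and exon length, and correlations used log2(CPM + 0.5). Fits were first tested on simulated data. Groups came from the labels. P-values judge the difference between groups against the spread between the bladders of a group.

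All 9 genes were tested in each comparison, but the values of genes without a call are not all given. Of 37 listed pathway genes, at most the 4 largest called rises and 4 largest called falls were named, with exceptions given by list counts. The 2 genes most like each of the 9 were named. The genes and lists were chosen with earlier results of these data known. The alternatives were RLE scaling, DESeq2 1.42.0, no filter, a minimum of 10 counts per bladder, a joint fit of all 6 groups, limma 3.58.1 with trend on the deposited log2 table, a block for the replicate number, and omission of single bladders. Python 3.11.15 with pandas 2.3.3 and matplotlib 3.10.9 made tables and plots. Counts per bladder were 15088372 to 52650259. Protein sequences were not used here. Some listed genes are counted but not reported here by name.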

Additional observations from a re-analysis of the deposited data

Results flagged for a closer look

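Of 54 sets of values (9 genes in 6 groups of 4 to 6 bladders), 4 held a bladder far from the others of its group by Dixon's criterion, which chance flags in about 1 in 20 sets. Middle-aged replicate 4 was high in Tgfb3 at 55.5 CPM, and middle-aged replicate 2 was low in Ltbp1 at 110.1 CPM. D + Q replicate 6 was low in Tgfbr1 at 61.6 CPM, and untreated old replicate 2 was low in Smad7 at 28.6 CPM.

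For 9 genes the change from middle-aged to untreated old bladders differed from the change from young to middle-aged ones in the edgeR contrast of the steps, given as the later log2 fold change minus the earlier, with 10.8% of all genes called. The ligand Tgfb3 had a difference of 1.04. Of the 37 pathway genes 8 were called, all with positive differences, beside 7.17% of all genes called positive. The differences were 3.48 for Ccn2, 1.29 for Fbn1, 1.19 for Col3a1, 0.83 for Col1a2, 0.70 for Nrros, 0.64 for Acvrl1, 0.53 for Eng and 0.50 for Postn. The middle-aged bladders enter both steps with opposite sign, so a middle-aged level that is low in a gene raises its difference.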

How the results depend on the processing

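Of 567 values of single genes under other settings, 531 kept their direction and their side of the threshold, 21 lost a call, 6 gained one and 9 changed sign without a call in either setting. Limma on the deposited log2 table gave log2 fold changes of opposite sign for Tgfbr2 (-0.023) and Tgfbr3 (-0.021) in untreated old against middle-aged, for Smad7 in D + Q against untreated old (-0.017), for Tgfb1 (-0.0033) and Smad7 (-0.0018) in vehicle against untreated old, and for Tgfbr1 in the contrast of the steps (-0.034). For each of these the cause was not tested. DESeq2, RLE scaling and at least 10 counts in every bladder kept all calls among the 9 genes, and DESeq2 added Tgfb2 in middle-aged against young, Tgfbr2 in untreated old against young, and Tgfb2 and Ltbp2 in the contrast of the steps. The joint fit of all 6 groups and limma also added Tgfbr2 in untreated old against young.

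In middle-aged against young bladders, 1811 genes and 2 of the 9 were called. All 6 groups in 1 fit called 2858 genes. Without a filter 1 of the 9 was called (Tgfb3), and limma called 0. In untreated old against middle-aged, 4110 genes and 5 of the 9 were called, against 2519 and 2 (Ltbp2 and Smad7) with all 6 groups in 1 fit and 3 of the 9 with limma (Ltbp2, Smad7 and Tgfb3). Limma moved the share of higher genes among those called from 54.3% to 41.0% in this comparison and from 66.1% to 51.2% in the contrast of the steps. In that contrast 1 of the 9 was called, 3 by DESeq2, 0 with all 6 groups in 1 fit and 0 by limma. In water-treated against untreated old, 173 genes and Tgfbr1 were called. DESeq2 called 703 genes there, and without a filter it was 99 genes and 0 of the 9. All 6 groups in 1 fit and limma each called 0 genes. DESeq2 called 185, 11 and 69 genes for D + Q against untreated old, vehicle and water, and 132 for vehicle against untreated old. The causes were not tested.

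Replicate numbers are those of the sample titles, which differ from the numbers in the descriptions for some middle-aged, water-treated and vehicle-treated bladders. Bladders with the same title number were not treated as paired: of 40 pairs in 8 comparisons 8 correlated over 0.1 (r -0.31 to 0.21), and 8 matched their own number best. This check and the block below follow the title numbers. They therefore cannot decide whether bladders were paired by the numbers in the descriptions. With the replicate number as a block, 716 genes and 0 of the 9 were called in middle-aged against young, 3 of the 9 in untreated old against middle-aged, 0 genes and 0 of the 9 in water against untreated old, 1 gene in D + Q against water, and 0 of the 9 in the contrast of the steps. With this block, Tgfb1 turned to -0.022 in D + Q against vehicle, and Tgfb3 to 0.063 and Ltbp2 to -0.016 in vehicle against untreated old. The block changed no other call among the 9 genes.

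Leaving out each bladder in turn gave 728 to 2794 genes and 0 to 3 of the 9 in middle-aged against young, 3391 to 4097 and 3 to 5 in untreated old against middle-aged, 3466 to 4540 and 2 to 4 in untreated old against young, 683 to 2907 and 0 to 3 in the contrast of the steps, 37 to 199 and 0 to 1 in water against untreated old, and 0 to 3 genes in D + Q against water. Of 945 values of single genes 818 kept their direction and call, 53 lost a call, 18 gained one and 56 changed sign without a call. Those that changed sign had ranges of -0.056 to 0.15 (Tgfbr1) and -0.080 to 0.018 (Smad7) in middle-aged against young, -0.0068 to 0.047 (Tgfbr2) and -0.0032 to 0.056 (Tgfbr3) in untreated old against middle-aged, and -0.083 to 0.18 (Tgfbr1) in the contrast. In D + Q against untreated old they were -0.042 to 0.043 (Smad7), -0.20 to 0.020 (Tgfb3) and -0.069 to 0.014 (Tgfbr1). Against vehicle they were -0.056 to 0.073 (Tgfb1), -0.19 to 0.041 (Tgfb3), -0.077 to 0.0084 (Ltbp1), -0.081 to 0.073 (Smad7) and -0.039 to 0.13 (Tgfbr1), and against water -0.40 to 0.021 (Tgfb2), -0.28 to 0.079 (Tgfb3) and -0.13 to 0.037 (Smad7). In water against untreated old they were -0.31 to 0.12 (Tgfb2), -0.051 to 0.27 (Ltbp2), -0.030 to 0.058 (Ltbp1), -0.15 to 0.18 (Tgfb3) and -0.029 to 0.13 (Smad7). In vehicle against untreated old they were -0.036 to 0.086 (Tgfb1), -0.065 to 0.094 (Smad7), -0.11 to 0.075 (Tgfb3), -0.13 to 0.21 (Ltbp2) and -0.061 to 0.029 (Ltbp1). With 4 to 6 bladders a group and 53 counts of Ltbp2 at the lowest, changes near the standard errors given for each gene were not detectable.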

Other observations

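The TPM ratio of the 2 signalling receptors, Tgfbr2 to Tgfbr1, was 3.58 ± 0.814 (SD, n = 6) in young, 3.03 ± 0.437 (SD, n = 5) in middle-aged and 2.92 ± 0.223 (SD, n = 6) in untreated old bladders. The highest and the lowest ratio of all 32 bladders, 4.77 and 2.32, were both in young bladders. After water it was 3.20 ± 0.216 (SD, n = 5), after vehicle 3.09 ± 0.592 (SD, n = 4) and after D + Q 2.76 ± 0.278 (SD, n = 6). The summed TPM of the 3 ligands was 138 ± 27.3 in young, 105 ± 8.99 in middle-aged and 131 ± 19.8 in untreated old bladders. These ratios and sums were not tested, since their parts were tested gene by gene.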
